A study of Homo sapiens with 12 samples.

Results

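The small nuclear, nucleolar and Cajal body RNAs of Z-138, an established human mantle cell lymphoma line, were taken by symbol from a table of gene counts. The rule took rows whose symbol starts with SNORA, SNORD, SCARNA, RNU or VTRNA, and added RN7SK, RN7SL1, RN7SL2, RMRP, RPPH1 and TERC. It found 108 of 13820 rows, of which 68 were not pseudogenes and 40 were U snRNA pseudogenes, with symbols ending in P. The study asked what loss of SMARCA4 does to these cells and to their answer to 2 lymphoma drugs. Cells carried an shRNA against SMARCA4, the ATPase of a chromatin remodelling complex, or a control shRNA. Each received 3 µM ibrutinib, a BTK inhibitor, together with 3 µM venetoclax, a BCL2 inhibitor, or DMSO as the vehicle, and doxycycline was present in all 4 groups. The groups are knockdown cells under drug (SMARCA4kd_IbrVen), control cells under drug (control_IbrVen), knockdown cells in DMSO (SMARCA4kd_DMSO) and control cells in DMSO (control_DMSO), with 3 libraries each. The labels give neither the exposure time nor whether the cells were 1 clone or a pool.

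Library totals ran from 7279503 to 22528537 counts, the highest being SMARCA4kd_DMSO replicate 3. SMARCA4 was at 175 ± 8.66 CPM (counts relative to the scaled library total, SD, n = 3) in SMARCA4kd_IbrVen and 610 ± 28.2 CPM in control_IbrVen, and at 170 ± 9.67 CPM in SMARCA4kd_DMSO and 577 ± 21.6 CPM in control_DMSO. The lymphoma and B cell markers CCND1, SOX11, PAX5, CD79A, CD79B and MS4A1 had counts in every library. Of 8 markers of other cell types, COL1A1 alone had a row, at 14.2 to 25.99 CPM. The column of control_IbrVen replicate 1 named no treatment and was assigned by elimination, so the leading results and counts that rest on it are also given without it. Ribosomal 18S and 28S RNA took 8.36% ± 1.01 of counts in SMARCA4kd_IbrVen, 10.6% ± 0.330 in control_IbrVen, 10.5% ± 0.525 in SMARCA4kd_DMSO and 9.15% ± 0.308 in control_DMSO (SD, n = 3 each).

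These RNAs act in RNA processing and its control rather than as templates for protein. U snRNAs form the spliceosomes. The minor spliceosome uses U11, U12, U4atac and U6atac for a rare intron class, and the major one uses U1, U2, U4, U5 and U6. C/D snoRNAs guide methylation of ribosomal RNA and H/ACA snoRNAs guide its pseudouridylation, while scaRNAs guide the same changes on snRNAs in Cajal bodies. Most human snoRNAs and many scaRNAs are cut out of introns of host genes. 7SK, vault RNAs, U6atac, RNase P RNA and RNase MRP RNA have promoters of their own and are made by RNA polymerase III.

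The libraries were made with a kit that primes on poly(A), and mature members of these classes mostly carry no long poly(A) tail. In 63 members that are not pseudogenes and matched GENCODE release 29 (GRCh38) by Ensembl identifier, the longest run of A had a median of 3.0 bases and reached 18 bases in the RPPH1 model, the single one over 6. More RNA and a larger captured share of it cannot be told apart in these counts, and a change in every cell cannot be told from a larger one in some cells. All 68 together took 0.0992% to 0.142% of the counts of a library.

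Of those 63 members, 46 lay inside a host gene on the same strand and 17 had no such host. Chromosomes and strands below are those of GENCODE release 29, because the authors' build, hg19, differs, so gene positions are not printed. The identifier of the SNORA76 row is the host lncRNA SNHG25 in that release, and the row can therefore hold the lncRNA. Identifiers of RNU12, SCARNA2 and RPPH1 are noncoding gene models of 664, 427 and 638 bases there, and that of RNU11 is a lincRNA model of 131 bases. On its own strand RNU4ATAC lies in an intron of AC012447.1, which has no row here. RNU4ATAC also lies inside CLASP1 on the other strand and RNU5F-1 inside ARMH1 on the other strand. The strand setting of the counting is not given in the sources used here, so reads of such partners cannot be told apart.

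The sequences below belong to some of the RNAs called with drug or knockdown, with RNU4ATAC as the partner of U6atac that was not called with all libraries. Other called RNAs, some with larger differences, are not printed. They are GENCODE release 29 transcripts, 5′ to 3′, written as DNA. The first is 7SK (chromosome 6, plus strand), of which the first 120 of 331 bases are shown. GATC, the letters HEXIM1 recognises in the 5′ hairpin, is in capitals wherever it occurs, so a marked copy is not by itself a HEXIM1 site.
RN7SK: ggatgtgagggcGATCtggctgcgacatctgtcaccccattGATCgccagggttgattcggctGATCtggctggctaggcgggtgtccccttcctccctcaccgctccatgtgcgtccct
U6atac (chromosome 9, minus strand) has its terminal run of T in capitals, the signal at which RNA polymerase III stops.
RNU6ATAC: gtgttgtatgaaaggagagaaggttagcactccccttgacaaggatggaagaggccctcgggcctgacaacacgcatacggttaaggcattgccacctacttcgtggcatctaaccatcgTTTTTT
The U4 genes RNU4-2 and RNU4-1 (chromosome 12, minus strand) and U4atac (chromosome 2, plus strand) have AATTTTTG in capitals, the site bound by the ring of Sm proteins.
RNU4-2: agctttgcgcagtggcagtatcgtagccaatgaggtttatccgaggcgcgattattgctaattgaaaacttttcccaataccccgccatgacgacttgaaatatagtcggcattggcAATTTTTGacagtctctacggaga
RNU4-1: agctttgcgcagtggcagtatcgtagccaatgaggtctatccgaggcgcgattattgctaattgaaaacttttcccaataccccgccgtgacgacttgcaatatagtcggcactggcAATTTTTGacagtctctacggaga
RNU4ATAC: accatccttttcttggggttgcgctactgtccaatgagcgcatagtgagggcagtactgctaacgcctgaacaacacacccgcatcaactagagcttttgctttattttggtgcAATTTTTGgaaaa
SCARNA2 (chromosome 1, plus strand, the last 120 bases of its model) has TGATGA, the box C letters, and CTGA, the box D letters, in capitals.
SCARNA2: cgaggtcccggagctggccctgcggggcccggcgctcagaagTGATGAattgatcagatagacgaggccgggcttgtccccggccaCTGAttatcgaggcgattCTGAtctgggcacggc
SNORA42 (chromosome 1, minus strand) and SCARNA13 (chromosome 14, minus strand) end in an ACA box, shown in capitals with the 3 bases after it.
SNORA42: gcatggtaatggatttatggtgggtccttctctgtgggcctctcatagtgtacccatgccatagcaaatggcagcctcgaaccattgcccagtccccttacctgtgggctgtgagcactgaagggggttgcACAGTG
SCARNA13: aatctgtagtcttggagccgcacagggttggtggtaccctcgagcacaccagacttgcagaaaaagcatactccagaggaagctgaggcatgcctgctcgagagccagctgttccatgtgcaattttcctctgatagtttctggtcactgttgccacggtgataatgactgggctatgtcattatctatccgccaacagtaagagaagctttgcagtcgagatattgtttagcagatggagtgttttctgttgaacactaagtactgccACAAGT
VTRNA2-1 (chromosome 5, minus strand) has GGTTCGA in capitals, letters of the internal B box promoter element that RNA polymerase III genes share with tRNAs.
VTRNA2-1: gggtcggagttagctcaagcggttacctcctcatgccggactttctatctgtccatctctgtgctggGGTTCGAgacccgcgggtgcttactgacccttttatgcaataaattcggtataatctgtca
The first 100 of 541 bases of TERC (chromosome 3, minus strand) have the template for telomere repeats in capitals.
TERC: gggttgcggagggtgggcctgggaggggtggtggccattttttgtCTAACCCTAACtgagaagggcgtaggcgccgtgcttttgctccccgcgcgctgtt

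Searched on the RNA strand of the 101 members with a sequence, TGATGA was found in 12 of 13 C/D snoRNAs, 6 of 15 scaRNAs and 22.8% of all 101. CTGA within the last 20 bases, which can overlap TGATGA where a C precedes it, was in the same number of C/D snoRNAs and scaRNAs and in 21.8% of all. ACA exactly 3 bases from the end was in 16 of 20 H/ACA snoRNAs, 8 of 15 scaRNAs and 24.8% of all. AATTTTTG was in 4 of 9 U snRNAs and 4 of 38 pseudogenes, and GGTTCGA in VTRNA2-1 alone. RNU4-1 and RNU4-2 were identical at 137 of 141 bases, so reads may have been split between them and the value of each is uncertain.

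Summed levels differed widely between classes and were set by few rows. H/ACA snoRNAs summed to 471 ± 20.5 CPM in SMARCA4kd_IbrVen, 667 ± 60.2 in control_IbrVen, 485 ± 24.7 in SMARCA4kd_DMSO and 614 ± 39.5 in control_DMSO (SD, n = 3 each). Most of it was the SNORA76 row, at 318, 342 and 354 CPM, 479, 490.3 and 563 CPM, 378, 362 and 325 CPM and 515, 458 and 494 CPM in the same order of groups. The scaRNAs summed to 335 ± 28.99, 372 ± 35.6, 322 ± 34.3 and 277 ± 20.3 CPM, again in that order. Their most abundant row was SCARNA22, which lies in NSD2 (WHSC1 in the table), at 198 to 242 CPM in SMARCA4kd_IbrVen, 231 to 275 in control_IbrVen, 198 to 259 in SMARCA4kd_DMSO and 191 to 226 in control_DMSO. The C/D snoRNAs summed to 47.4 ± 2.78, 58.8 ± 2.62, 44.03 ± 1.22 and 43.2 ± 4.09 CPM. SNORD104, in an intron of SNHG25, was the most abundant of them, followed by SNORD46. Over the 12 libraries, SCARNA9 was at 23.5 to 32.9 CPM, SNORD6 at 1.95 to 3.22 and SNORD8 at 1.43 to 4.48. CPM are not divided by length, so these are shares of reads and not numbers of molecules.

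Drug treatment raised members of several classes and lowered none past the test with all 12 libraries. Of the 52 members that passed the filter on low counts, 6 rose in knockdown cells and 9 in control cells, by edgeR's quasi-likelihood test at an adjusted p below 0.05 over 12602 rows. Among all rows tested, 0.738% rose and 0.548% fell in knockdown cells, and 0.738% rose and 0.555% fell in control cells, with 1.29% called in either direction in each. The shares of the members were 11.5% and 17.3%. The median log2 fold change of the members was 0.13 in knockdown cells and 0.42 in control cells, against 0.00 over all rows in both. RN7SK, SCARNA2, RNU6ATAC, RNU4-2 and SNORA42 rose in both, RNU11 in knockdown cells, and RNU4-1, SNORD46, RPPH1 and TERC in control cells. Because the filter keeps a low row if 1 group of libraries is high enough, members raised from low levels were more likely to be tested, and the 16 members not tested are described separately.

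Without control_IbrVen replicate 1, 7 members rose with drug in control cells, when 0.823% of all rows were called, and SNORA42 and TERC were not called. RN7SK then had a log2 fold change of 3.30 (adjusted p = 2.87e-13), SCARNA2 of 2.67 (adjusted p = 1.61e-14) and RNU6ATAC of 3.30 (adjusted p = 2.03e-05). RNU4-2 had 2.16 (adjusted p = 2.58e-06), RPPH1 1.11 (adjusted p = 4.99e-05) and SNORD46 1.46 (adjusted p = 2.90e-05) on the same scale.

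**Figure D1:**
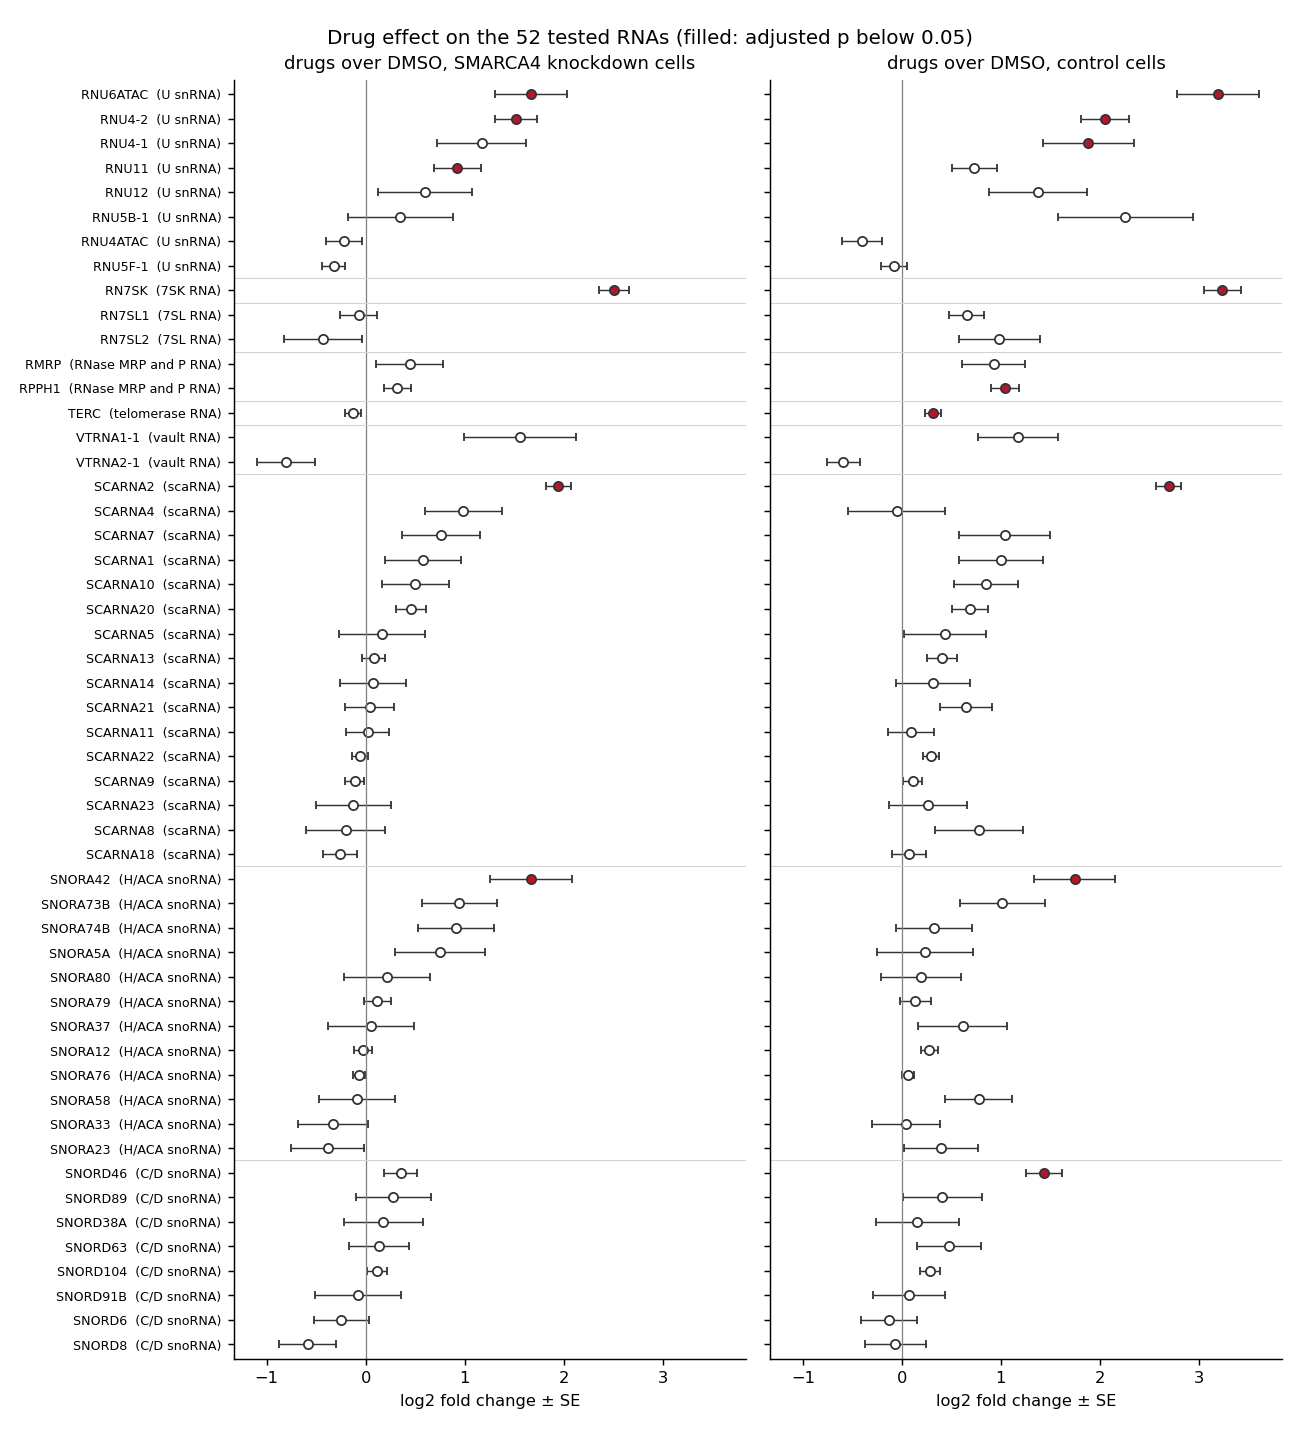
Log2 fold change of drug over DMSO (horizontal axis, ± SE) for the 52 tested RNAs by class, in knockdown cells (left) and control cells (right); filled points passed an adjusted p of 0.05. RN7SK, SCARNA2, RNU6ATAC, RNU4-2 and SNORA42 are filled in both panels, and no filled point lies below 0.

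7SK, the RNA that holds the elongation kinase P-TEFb inactive, had the largest drug log2 fold change of the 52 tested members in both populations, with RNU6ATAC close to it in control cells. RN7SK was at 21.8, 29.4 and 31.2 CPM in SMARCA4kd_IbrVen, against 4.48, 5.54 and 4.66 CPM in SMARCA4kd_DMSO. Its level was 22.4, 22.6 and 29.5 CPM in control_IbrVen, against 2.4, 2.05 and 3.46 CPM in control_DMSO. All 6 libraries under drug lay above all 6 in DMSO. The log2 fold change was 2.51 (adjusted p = 1.47e-12, SE 0.15) in knockdown cells and 3.23 (adjusted p = 1.87e-13, SE 0.19) in control cells, or 5.69-fold and 9.41-fold. The counts behind it were 166, 246 and 284 in SMARCA4kd_IbrVen and 41, 51 and 105 in SMARCA4kd_DMSO, and 192, 175 and 244 in control_IbrVen and 24, 17 and 29 in control_DMSO.

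Of the 8 U snRNAs tested, 3 rose in each cell population, and the minor spliceosome RNA U6atac rose the most. RNU6ATAC, which pairs with the 5′ splice site of minor introns, was at 1.97, 2.63 and 3.18 CPM in SMARCA4kd_IbrVen against 0.656, 1.09 and 0.754 CPM in SMARCA4kd_DMSO. It was at 3.61, 4.39 and 4.71 CPM in control_IbrVen against 0.3, 0.121 and 0.955 CPM in control_DMSO. These groups did not overlap, though the 3 control_DMSO libraries held 3, 1 and 8 counts. The log2 fold change was 1.67 (adjusted p = 0.0102, SE 0.36) in knockdown cells and 3.19 (adjusted p = 6.47e-06, SE 0.41) in control cells. In knockdown cells the call was lost without SMARCA4kd_DMSO replicate 3, SMARCA4kd_IbrVen replicate 3 (1.49 to 1.57, adjusted p 0.101 to 0.107), and here and below the parentheses after such libraries give the log2 fold change and adjusted p of those fits.

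RNU4ATAC, the partner of U6atac in the same particle, did not pass the test with all libraries. RNU4ATAC had 123, 79.6 and 39.2 CPM in SMARCA4kd_IbrVen, 49.7, 56.3 and 64.5 CPM in control_IbrVen, 92.4, 97.4 and 89.5 CPM in SMARCA4kd_DMSO and 87.2, 57.5 and 79.97 CPM in control_DMSO. It was the most abundant U snRNA row, and its 3 SMARCA4kd_IbrVen libraries spanned the range of all others. Its drug log2 fold change was -0.22 (adjusted p = 0.755, SE 0.19) in knockdown cells and -0.40 (adjusted p = 0.498, SE 0.20) in control cells. Without SMARCA4kd_IbrVen replicate 1 it was called lower with drug in knockdown cells, at -0.65 (adjusted p = 0.0432). With knockdown under drug its estimate was 0.49 (adjusted p = 0.0611, SE 0.20), and it was called higher in 6 of the alternative fits, among them library totals at 0.58 (adjusted p = 0.0299) and without SMARCA4kd_IbrVen replicate 3 at 0.83 (adjusted p = 1.20e-05). RNU11, which with U12 recognises minor introns, had 3.94, 5.37 and 5.05 CPM in SMARCA4kd_IbrVen and 3.28, 2.497 and 2.13 CPM in SMARCA4kd_DMSO, and 5.71, 4.91 and 6.53 CPM in control_IbrVen and 3.9999, 2.66 and 3.58 CPM in control_DMSO. The groups did not overlap in either population, and the log2 fold change was 0.93 (adjusted p = 0.0362, SE 0.23) in knockdown cells and 0.73 (adjusted p = 0.136, SE 0.23) in control cells. The call in knockdown cells was lost without SMARCA4kd_DMSO replicate 2 or 3, SMARCA4kd_IbrVen replicate 2 or 3 (0.73 to 0.92, adjusted p 0.0877 to 0.32), with DESeq2 and in a fit of the 2 groups alone.

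U4 of the major spliceosome rose with drug, and the U5 rows RNU5F-1 and RNU5B-1 did not pass the drug test with all libraries. RNU4-2 was at 7.35, 10.3 and 5.82 CPM in SMARCA4kd_IbrVen against 2.62, 3.15 and 2.53 CPM in SMARCA4kd_DMSO. In control cells it was at 6.76, 8.395 and 8.82 CPM under drug (control_IbrVen) against 1.7, 1.93 and 2.15 CPM in DMSO (control_DMSO). Drug and DMSO libraries did not overlap, with log2 fold changes of 1.52 (adjusted p = 3.22e-05, SE 0.21) in knockdown cells and 2.05 (adjusted p = 1.66e-06, SE 0.24) in control cells. The near copy RNU4-1 rose in control cells on the log2 scale by 1.88 (adjusted p = 0.03004, SE 0.46), a call lost without control_DMSO replicate 1, 2 or 3, control_IbrVen replicate 3 (1.52 to 2.05, adjusted p 0.0584 to 0.204) and with limma-voom, and its estimate in knockdown cells was 1.17 (adjusted p = 0.3005, SE 0.45). RNU5F-1 had estimates of -0.32 (SE 0.12) in knockdown cells and -0.08 (SE 0.13) in control cells. RNU5B-1, with at most 24 counts in a library, averaged 0.969 ± 0.451 CPM in SMARCA4kd_IbrVen and 0.682 ± 0.370 in SMARCA4kd_DMSO. Its means were 1.28 ± 0.922 CPM in control_IbrVen and 0.247 ± 0.219 in control_DMSO (SD, n = 3 each). Without control_IbrVen replicate 2, RNU5B-1 was called higher with drug in control cells, at 2.71 (adjusted p = 0.0241).

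**Figure D2:**
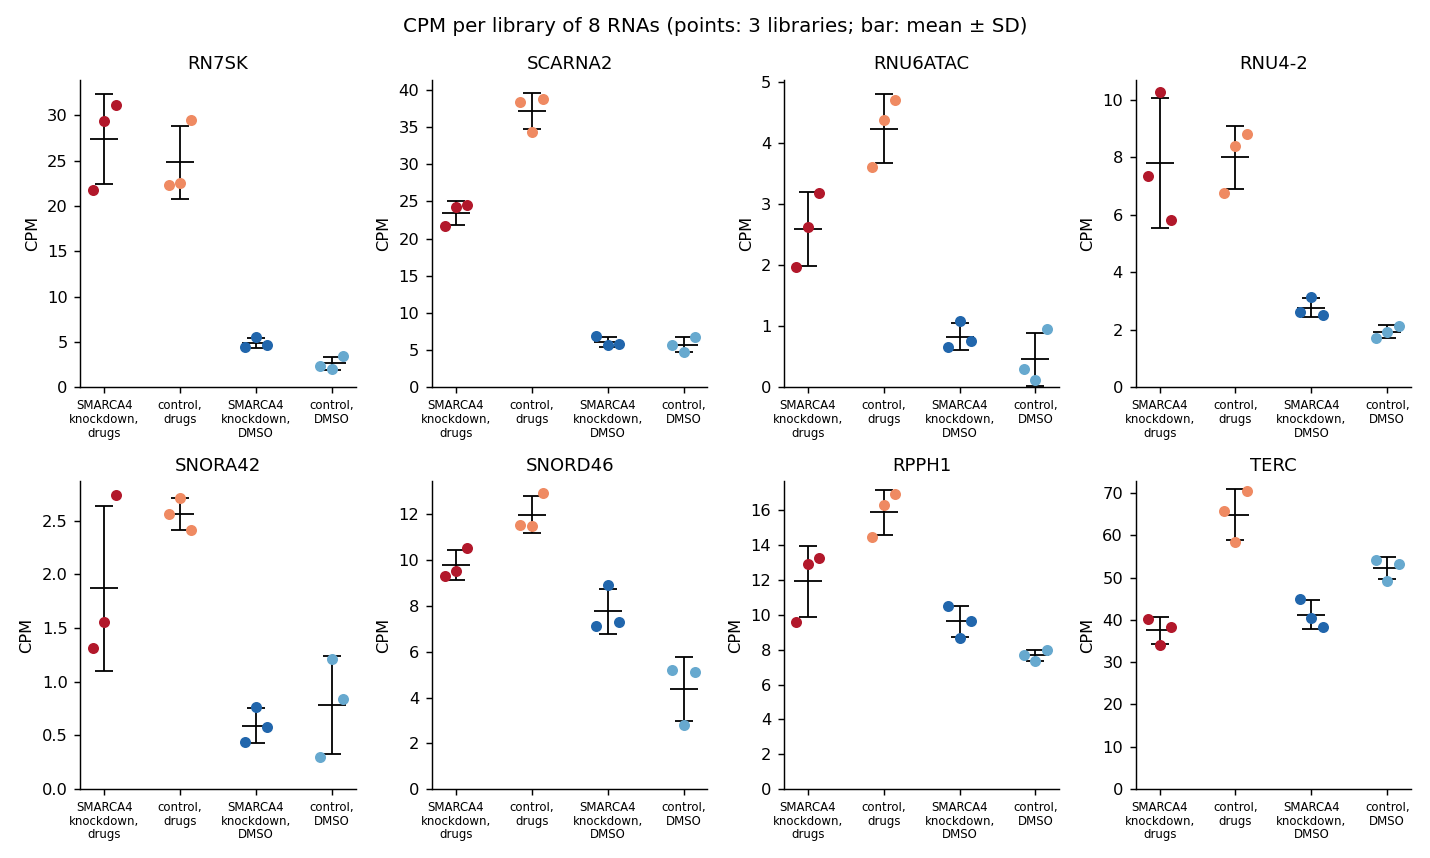
CPM (vertical axis, from 0) in each of the 12 libraries for 8 RNAs; points are libraries, horizontal marks the mean and bars 1 SD, with drug-treated groups left of DMSO groups. For RN7SK the drug-treated libraries reach 21.8 to 31.2 CPM and the DMSO libraries 2.05 to 5.54 CPM, and TERC in SMARCA4kd_IbrVen stays below its levels in control_IbrVen.

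Of the 16 tested scaRNAs, 1 rose with drug. SCARNA2, which is transcribed from a gene of its own, was at 21.7, 24.2 and 24.5 CPM in SMARCA4kd_IbrVen against 6.89, 5.64 and 5.896 CPM in SMARCA4kd_DMSO. It was at 38.4, 34.4 and 38.8 CPM in control_IbrVen against 5.6999, 4.71 and 6.803 CPM in control_DMSO. The groups did not overlap and the 3 libraries of each lay close together, with log2 fold changes of 1.95 (adjusted p = 2.31e-12, SE 0.12) in knockdown cells and 2.69 (adjusted p = 1.05e-15, SE 0.13) in control cells. The other 15 scaRNAs had drug log2 fold changes of -0.26 to 0.98 in knockdown cells and -0.05 to 1.04 in control cells. None of them passed the test with all libraries. In a fit of the 2 groups alone, SCARNA20 and SCARNA22 were called higher in control cells, at 0.69 (adjusted p = 0.0250) and 0.29 (adjusted p = 0.0309). Without SMARCA4kd_IbrVen replicate 1, SCARNA20 was called higher in knockdown cells, at 0.64 (adjusted p = 0.0197).

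Of the snoRNAs, 1 of 12 tested H/ACA RNAs rose in each population and 1 of 8 tested C/D RNAs rose in control cells. SNORA42, an H/ACA guide in an intron of KHDC4 (KIAA0907 in the table), had 1.31, 1.55 and 2.74 CPM in SMARCA4kd_IbrVen against 0.437, 0.7599 and 0.576 CPM in SMARCA4kd_DMSO, and 2.56, 2.71 and 2.42 CPM in control_IbrVen against 0.3, 1.21 and 0.836 CPM in control_DMSO. Its groups did not overlap, and it rose on the log2 scale by 1.67 (adjusted p = 0.0332, SE 0.42) in knockdown cells and 1.75 (adjusted p = 0.0196, SE 0.41) in control cells. With at most 25 counts in a library, the call was lost in knockdown cells without SMARCA4kd_DMSO replicate 1, 2 or 3, control_IbrVen replicate 2, SMARCA4kd_IbrVen replicate 3 (1.27 to 1.81, adjusted p 0.0507 to 0.341) and with limma-voom (adjusted p = 0.0501), and in control cells without control_DMSO replicate 1 or 3, control_IbrVen replicate 1 or 2 (1.32 to 1.82, adjusted p 0.0567 to 0.239).

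SNORD46, a C/D guide for 28S ribosomal RNA, was at 11.5, 11.5 and 12.9 CPM in control_IbrVen against 5.1999, 2.78 and 5.13 CPM in control_DMSO. In knockdown cells its libraries were at 9.32, 9.55 and 10.5 CPM in SMARCA4kd_IbrVen and 7.11, 8.901 and 7.32 CPM in SMARCA4kd_DMSO. Drug libraries lay above DMSO libraries in both populations, and the log2 fold change was 0.35 (adjusted p = 0.433, SE 0.16) in knockdown cells and 1.44 (adjusted p = 4.63e-06, SE 0.18) in control cells.

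RNase P RNA and telomerase RNA rose with drug in control cells. RPPH1, the catalytic RNA that trims tRNA 5′ ends, was at 9.58, 12.9 and 13.3 CPM in SMARCA4kd_IbrVen and 10.5, 8.68 and 9.66 CPM in SMARCA4kd_DMSO, and at 14.5, 16.3 and 16.9 CPM in control_IbrVen and 7.6999, 7.37 and 7.997 CPM in control_DMSO. The control groups were well apart and the knockdown groups overlapped, with log2 fold changes of 0.32 (adjusted p = 0.3801, SE 0.14) in knockdown cells and 1.04 (adjusted p = 1.68e-05, SE 0.14) in control cells. RMRP, its relative in RNase MRP, had 0.44 (SE 0.34) and 0.93 (SE 0.32) in the same order, neither past the test with all libraries. Without control_IbrVen replicate 2, RMRP was called higher in control cells, at 1.24 (adjusted p = 0.0317).

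TERC, the RNA template of telomerase, was at 65.6, 58.5 and 70.5 CPM in control_IbrVen and 54.2, 49.3 and 53.2 CPM in control_DMSO, which did not overlap, a log2 fold change of 0.31 (adjusted p = 0.04503, SE 0.08). That call was lost without control_DMSO replicate 1, 2 or 3, SMARCA4kd_DMSO replicate 2, control_IbrVen replicate 1 or 3 (0.24 to 0.34, adjusted p 0.0614 to 0.249), and also with DESeq2, limma-voom, library totals or no filter. In knockdown cells TERC was at 40.2, 34.02 and 38.3 CPM under drug (SMARCA4kd_IbrVen) and 44.9, 40.5 and 38.3 CPM in DMSO (SMARCA4kd_DMSO), overlapping groups with a log2 fold change of -0.13 (adjusted p = 0.665, SE 0.09). RN7SL1, the RNA of the signal recognition particle, was at 9.79, 12.5 and 8.94 CPM in control_IbrVen against 6.4999, 6.16 and 7.16 CPM in control_DMSO (0.65 (adjusted p = 0.0697, SE 0.18)). It was called higher there in some alternative fits, among them without control_IbrVen replicate 3, at 0.74 (adjusted p = 0.0484). Its estimate in knockdown cells was -0.07 (adjusted p = 0.959, SE 0.18), and its near copy RN7SL2 had -0.43 (SE 0.39) in knockdown cells and 0.98 (SE 0.41) in control cells.

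Split by annotation after these values were known, and with no test, the drug calls lay mostly among RNAs without a host gene. Of 15 tested members with no host on their strand, 5 were called in knockdown cells and 7 in control cells. Of 33 tested members inside a host, 1 and 2 were called. The SNORA76 row stands among those without a host because its identifier is SNHG25 itself. RNU4ATAC stands among those inside a host through AC012447.1. Neither of these rows was called with drug with all libraries, and the split is by annotation and not by how each RNA is made. Median log2 fold changes were 0.60 and 1.17 without a host, against 0.08 and 0.32 inside one, each given for knockdown cells first. In 32 pairs of a member and its host with both rows tested, which hold 31 different hosts, 0 hosts were called under drug in either population with edgeR, DESeq2 or limma-voom, beside 1.29% of all rows with edgeR. At an unadjusted p below 0.05 there were 4 in knockdown cells and 0 in control cells, beside 1316 and 1266 of all 12602 rows. So few calls over 31 genes lie near that background. KHDC4, the host of the drug-raised SNORA42, had log2 fold changes of 0.02 (SE 0.08) in knockdown cells and 0.10 (SE 0.08) in control cells. The median absolute log2 fold change of the small RNAs was 0.21 and 0.36, against 0.07 and 0.05 for their hosts.

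**Figure D3:**
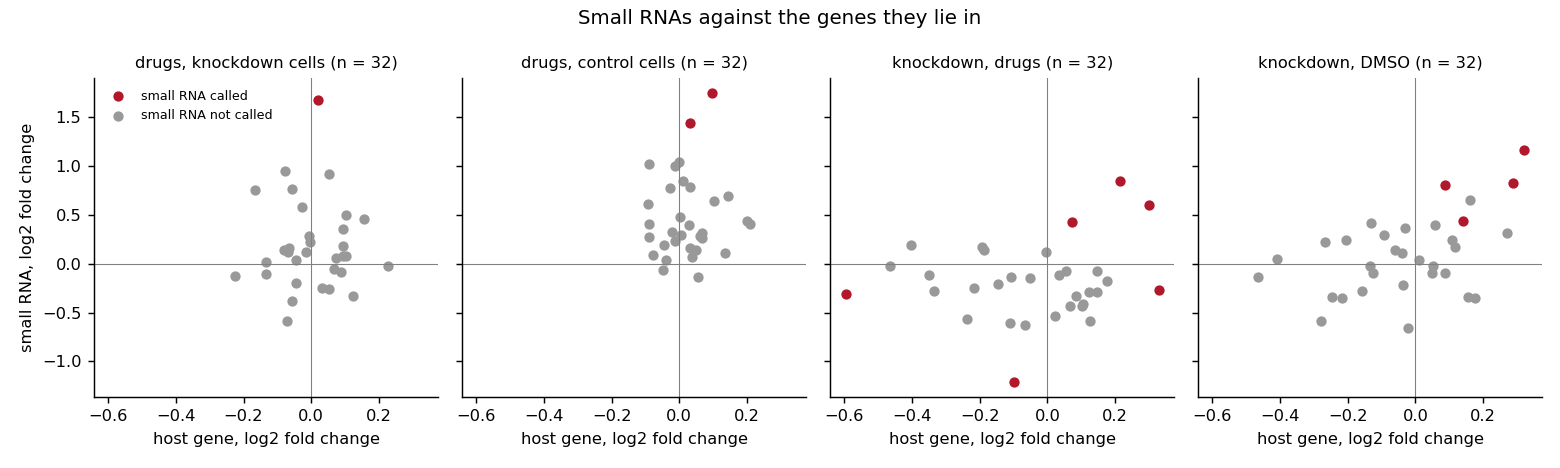
Log2 fold change of each small RNA (vertical) against that of its host gene (horizontal) for 32 pairs in 4 comparisons; red points are small RNAs past an adjusted p of 0.05. Under drug the hosts lie near 0 while SNORA42 (1.67 in knockdown and 1.75 in control cells) lies far above it.

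The drug response in knockdown cells was set against that in control cells by the interaction term, and 0 of the 52 members passed it with edgeR, DESeq2 or limma-voom. Over all rows 3 did (0.0238%). At an unadjusted p below 0.05 there were 11 of the 52, against 5.35% of all rows, all 11 with a smaller rise or a larger drop in knockdown cells. The smallest adjusted p of the members was 0.151, for SNORD46, with a difference of -1.09 (95% interval -1.59 to -0.59). The difference was -0.75 (95% interval -1.13 to -0.37) for SCARNA2, -0.73 (95% interval -1.13 to -0.32) for RPPH1, -0.44 (95% interval -0.68 to -0.20) for TERC and -0.73 (95% interval -1.27 to -0.18) for RN7SK. For RNU6ATAC it was -1.52 (95% interval -2.74 to -0.30) and for RNU4-2 -0.53 (95% interval -1.22 to 0.15). The estimate was below 0 in 44 of 52 members, with a median of -0.33 against -0.00 over all rows. Of the 3 rows called, 2 were ribosomal, RNA18S5 at -0.55 (SE 0.08) and RNA28S5 at -0.79 (SE 0.15), and their part in the members' differences was not tested. Without the ribosomal rows, 0 members were called as well. Without control_IbrVen replicate 1, 0 of 54 members passed and 13 had an unadjusted p below 0.05, against 5.25% of all rows. The difference was then -1.11 (SE 0.26) for SNORD46, -0.72 (SE 0.20) for SCARNA2, -0.79 (SE 0.21) for RPPH1, -0.43 (SE 0.13) for TERC, -0.80 (SE 0.27) for RN7SK, -1.63 (SE 0.62) for RNU6ATAC and -0.64 (SE 0.35) for RNU4-2. The drug log2 fold changes of the 2 populations share no library, and across the 52 members they correlated at Pearson r = 0.80, against 0.28 across 12602 rows, given as a description.

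SMARCA4 knockdown moved members in both directions. Under drug 3 of 52 rose and 10 fell (25% called), against 14.8% and 16.3% of all rows (31.1% called). In DMSO 6 rose and 4 fell (19.2% called), against 15.1% and 16.2% of all rows (31.3% called). Among the 1877 rows at or below the median level of the tested members, 16.8% were called under drug and 16.2% in DMSO. Scaled by library totals, the counts under drug were 5 higher and 7 lower, and without SMARCA4kd_IbrVen replicate 1 they were 2 and 6. The shares of all rows called in those fits are not given here. Without control_IbrVen replicate 1 the counts under drug were 2 higher and 10 lower, when 27.0% of all rows were called. VTRNA2-1 then had a log2 fold change of -2.76 (adjusted p = 7.19e-10) under drug, TERC of -0.79 (adjusted p = 1.15e-07), SCARNA13 of 0.83 (adjusted p = 9.76e-05) and SCARNA2 of -0.64 (adjusted p = 9.92e-05). The median log2 fold change of the members was -0.29 under drug and 0.10 in DMSO. SCARNA13, SCARNA20 and SNORA79 rose in both conditions, and VTRNA2-1, VTRNA1-1, TERC and SNORA76 fell in both. The knockdown comparisons share control_DMSO or a drug-treated group with the drug comparisons, so agreement between these 2 kinds of comparison is no separate evidence.

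**Figure D4:**
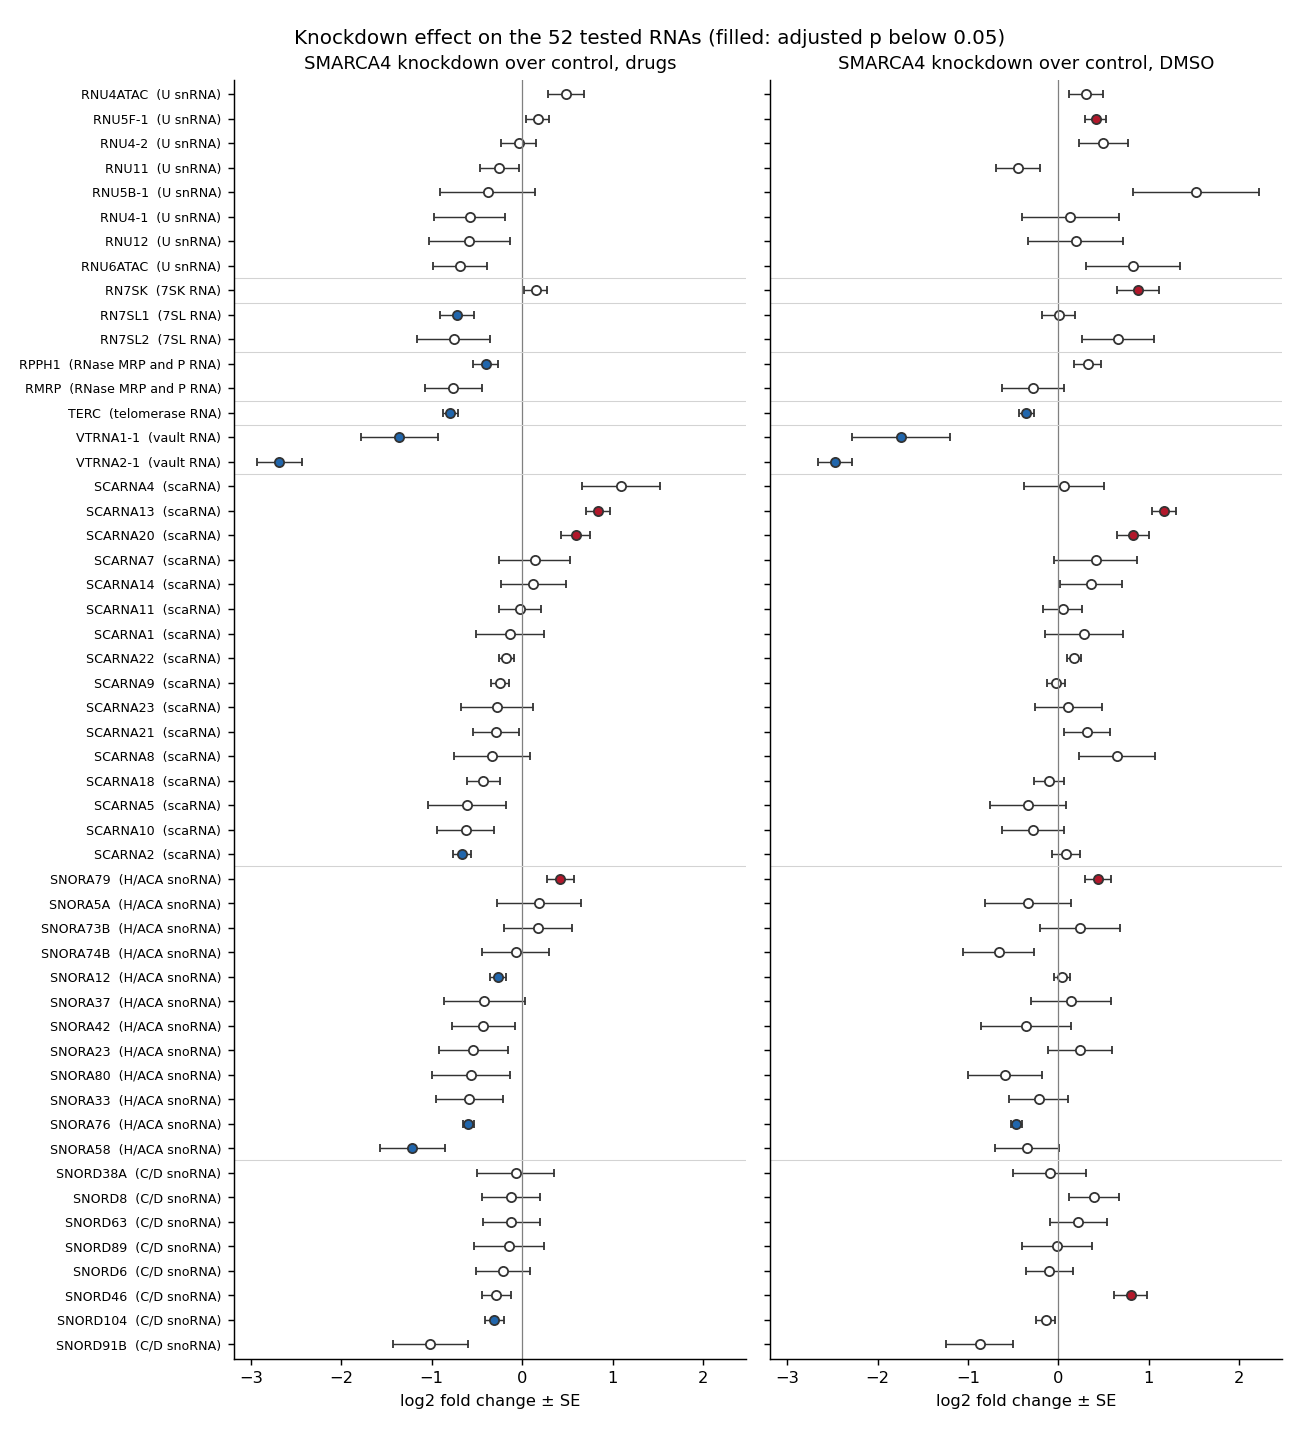
Log2 fold change of SMARCA4 knockdown over control (horizontal axis, ± SE) for the 52 tested RNAs by class, under drug (left) and in DMSO (right); filled points passed an adjusted p of 0.05. Both RNAs with a VTRNA symbol lie far left in both panels, at -2.68 and -1.36 under drug and -2.47 and -1.74 in DMSO. SCARNA13 and SCARNA20 lie right of 0.

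Both RNAs with a VTRNA symbol fell with knockdown in both conditions. VTRNA2-1, an RNA polymerase III transcript known to bind the kinase PKR, was at 1.57, 1.55 and 1.32 CPM in SMARCA4kd_IbrVen against 8.51, 8.27 and 11.8 CPM in control_IbrVen. It was at 1.75, 3.26 and 2.66 CPM in SMARCA4kd_DMSO against 15.1, 15.6 and 12.4 CPM in control_DMSO. VTRNA2-1 was lower in each of the 6 knockdown libraries than in any control library, and it fell, with log2 fold changes of -2.68 (adjusted p = 2.85e-10, SE 0.25) under drug and -2.47 (adjusted p = 3.58e-12, SE 0.19) in DMSO. VTRNA1-1, a component of vault particles, had 0.787, 1.91 and 0.219 CPM in SMARCA4kd_IbrVen against 2.798, 2.32 and 2.297 CPM in control_IbrVen, and 0.328, 0.326 and 0.3103 CPM in SMARCA4kd_DMSO against 0.89999, 1.09 and 1.31 CPM in control_DMSO. It fell too, with log2 fold changes of -1.36 (adjusted p = 0.0134, SE 0.42) under drug and -1.74 (adjusted p = 0.0139, SE 0.54) in DMSO, from at most 24 counts in a library. That call was lost under drug without control_IbrVen replicate 1, SMARCA4kd_IbrVen replicate 1 or 3 (-1.26 to -0.85, adjusted p 0.0531 to 0.123) and in DMSO without control_DMSO replicate 3, SMARCA4kd_DMSO replicate 3 (-1.69 to -1.59, adjusted p 0.0569 to 0.0685).

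With drug, VTRNA2-1 lay lower in all drug libraries than in all DMSO libraries of each population but did not pass the test, with log2 fold changes of -0.80 (adjusted p = 0.252, SE 0.29) in knockdown cells and -0.59 (adjusted p = 0.0726, SE 0.16) in control cells. In control cells it was called lower with limma-voom at -0.60 (adjusted p = 0.0443), without control_DMSO replicate 3 at -0.68 (adjusted p = 0.0478) and without control_IbrVen replicate 3 at -0.78 (adjusted p = 0.0187).

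**Figure D5:**
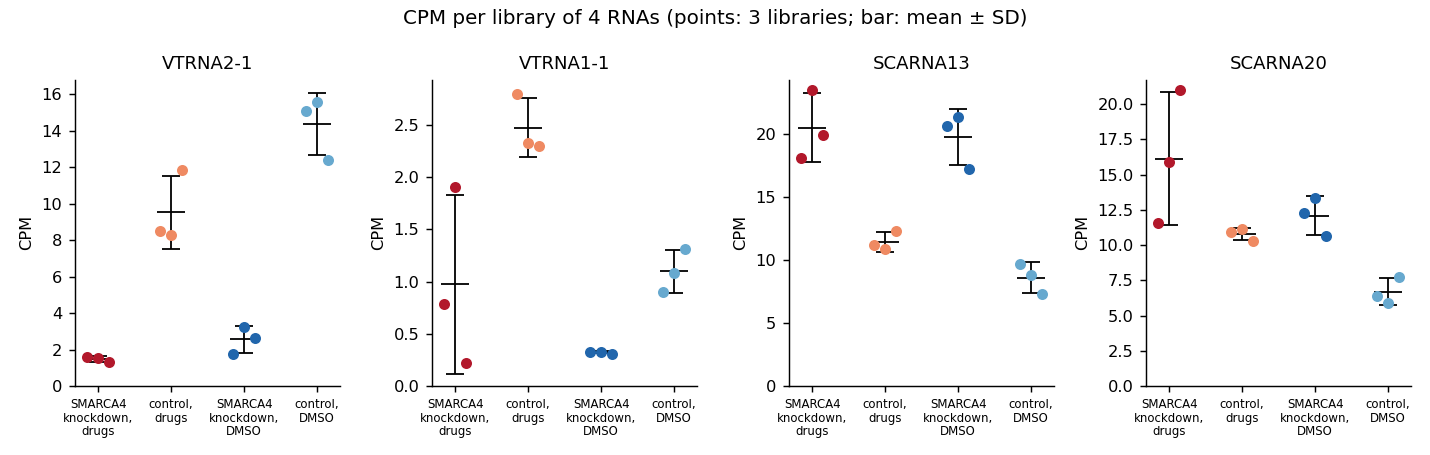
CPM (vertical axis, from 0) in each of the 12 libraries for 4 of the RNAs called with knockdown in both conditions. Points are libraries, horizontal marks the mean and bars 1 SD. VTRNA2-1 is at 1.32 to 3.26 CPM in the knockdown groups and 8.27 to 15.6 CPM in the control groups, and SCARNA13 is higher in the knockdown groups (17.2 to 23.5 CPM) than in the control groups (7.28 to 12.3 CPM).

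Telomerase RNA fell with knockdown, and so did the mRNA of the telomerase protein. TERC was lower in every knockdown library than in every control library under the same treatment, with log2 fold changes of -0.79 (adjusted p = 7.72e-09, SE 0.08) under drug and -0.35 (adjusted p = 0.00105, SE 0.08) in DMSO. TERT had log2 fold changes of -0.46 (adjusted p = 0.01296, SE 0.14) under drug and -0.85 (adjusted p = 4.58e-06, SE 0.13) in DMSO. RN7SK, by contrast, rose on the log2 scale with knockdown in DMSO by 0.88 (adjusted p = 0.00395, SE 0.23), and its estimate under drug was 0.15 (adjusted p = 0.409, SE 0.13), where the groups overlapped.

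Among scaRNAs 2 rose in both conditions, and both lie in introns. SCARNA13, in SNHG10, was at 18.1, 23.5 and 19.97 CPM in SMARCA4kd_IbrVen against 11.2, 10.8 and 12.3 CPM in control_IbrVen, and at 20.7, 21.4 and 17.2 CPM in SMARCA4kd_DMSO against 9.6998, 8.82 and 7.28 CPM in control_DMSO. Its knockdown libraries all lay above its control libraries, and the log2 fold change was 0.84 (adjusted p = 8.00e-06, SE 0.13) under drug and 1.17 (adjusted p = 2.43e-08, SE 0.13) in DMSO. SNHG10 itself did not pass, at 0.21 (SE 0.20) and 0.32 (SE 0.19). SCARNA20, in USP32, was at 11.5, 15.9 and 20.96 CPM in SMARCA4kd_IbrVen against 10.96, 11.1 and 10.3 CPM in control_IbrVen, and at 12.2, 13.4 and 10.6 CPM in SMARCA4kd_DMSO against 6.3999, 5.92 and 7.76 CPM in control_DMSO. The groups did not overlap, and it rose on the log2 scale by 0.59 (adjusted p = 0.00469, SE 0.16) under drug, a call lost without SMARCA4kd_IbrVen replicate 3 (0.36, adjusted p = 0.105), and by 0.83 (adjusted p = 0.000336, SE 0.17) in DMSO. USP32 had 0.30 (SE 0.14) and 0.29 (SE 0.14), neither past the test. SCARNA2 fell under drug, with a log2 fold change of -0.66 (adjusted p = 6.10e-06, SE 0.10) and had 0.08 (adjusted p = 0.726, SE 0.16) in DMSO.

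The snoRNAs called with knockdown mostly differed by less. The SNORA76 row fell, with a log2 fold change of -0.60 (adjusted p = 7.92e-09, SE 0.06) under drug and -0.46 (adjusted p = 6.81e-07, SE 0.06) in DMSO, with no overlap between groups. SNORD104, from an intron of the gene that this row's identifier names, fell under drug, with a log2 fold change of -0.31 (adjusted p = 0.0224, SE 0.10), a call lost without control_IbrVen replicate 1 or 3, SMARCA4kd_IbrVen replicate 1 or 3 (-0.30 to -0.26, adjusted p 0.0546 to 0.0902) and with library totals. In DMSO its estimate was -0.14 (adjusted p = 0.319, SE 0.10). SNORA79, in GTF2A1, rose on the log2 scale by 0.42 (adjusted p = 0.0288, SE 0.15) under drug and 0.44 (adjusted p = 0.0175, SE 0.14) in DMSO. The SNORA79 calls were lost under drug without control_IbrVen replicate 1 or 2, SMARCA4kd_IbrVen replicate 1 or 3 (0.34 to 0.44, adjusted p 0.0515 to 0.1402) and in DMSO without control_DMSO replicate 1 or 2, SMARCA4kd_DMSO replicate 3 (0.29 to 0.40, adjusted p 0.0706 to 0.167).

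The remaining knockdown calls were seen in 1 condition, and none of these differences between conditions passed the interaction test. SNORD46 rose in DMSO on the log2 scale by 0.80 (adjusted p = 0.000995, SE 0.18) and had -0.29 (adjusted p = 0.182, SE 0.16) under drug. RNU5F-1 rose in DMSO on the log2 scale by 0.42 (adjusted p = 0.00603, SE 0.12) with overlapping groups, a call lost without SMARCA4kd_DMSO replicate 3 (0.33, adjusted p = 0.0615). Under drug, SNORA58 in MRPL3 fell, with a log2 fold change of -1.21 (adjusted p = 0.00979, SE 0.36), a call lost without SMARCA4kd_IbrVen replicate 1 (-0.98, adjusted p = 0.0636). SNORA12 in CWF19L1 fell, with a log2 fold change of -0.26 (adjusted p = 0.0209, SE 0.09), while CWF19L1 rose by 0.33 (SE 0.12) on the same scale, and the SNORA12 call was lost without control_IbrVen replicate 3, SMARCA4kd_IbrVen replicate 2 (-0.21 to -0.18, adjusted p 0.118 to 0.162) and with DESeq2 or library totals. RN7SL1 fell, with a log2 fold change of -0.72 (adjusted p = 0.00268, SE 0.18), as did RPPH1, with -0.40 (adjusted p = 0.0205, SE 0.13), the RPPH1 call being lost without control_IbrVen replicate 2 or 3, SMARCA4kd_IbrVen replicate 1 (-0.39 to -0.27, adjusted p 0.0592 to 0.165) and with library totals.

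Host genes and their small RNAs were also set side by side under knockdown. In the 32 pairs, the host was called in 13 and the small RNA in 6 under drug, with both in 2 and in the same direction in 1. In DMSO the host was called in 9, the small RNA in 4, and both in none of the 32. Host and RNA log2 fold changes correlated across the pairs at r = 0.13 under drug and 0.48 in DMSO, as a description. The shares of hosts and of small RNAs called stand beside 31.1% and 31.3% of all rows. Without control_IbrVen replicate 1, 7 of the 31 hosts were called under drug, against 12 of 31 with it.

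Of the 40 pseudogene rows, all of U snRNAs, 24 were tested. Drug raised 2 of them in control cells, RNU1-60P and RNU1-59P, named as U1 pseudogenes. That was 8.33% of the 24, while 1.29% of all rows were called under drug in each population. In knockdown cells 0 were called with edgeR, DESeq2 or limma-voom, and 5 had an unadjusted p below 0.05. RNU1-60P was at 7.69, 9.82 and 7.98 CPM in control_IbrVen against 3, 2.66 and 4.297 CPM in control_DMSO, a log2 fold change of 1.35 (adjusted p = 0.000141, SE 0.21), and in knockdown cells it had 0.65 (adjusted p = 0.134, SE 0.20). RNU1-59P was at 19.7, 21.8 and 19.1 CPM in control_IbrVen against 9.5998, 11.8 and 14.7 CPM in control_DMSO, a log2 fold change of 0.76 (adjusted p = 0.00161, SE 0.14). Neither pair of groups overlapped, and reads of functional U1 copies could have been counted here. Of the 24, knockdown called 8.33% under drug and 4.17% in DMSO, against 31.1% and 31.3% of all rows. Knockdown under drug gave 1 higher, RNU2-63P at 0.61 (adjusted p = 0.0193, SE 0.20), and 1 lower, RNU1-16P at -0.52 (adjusted p = 0.0425, SE 0.20). The RNU2-63P call was lost without control_IbrVen replicate 1 or 2, SMARCA4kd_IbrVen replicate 1 (0.57 to 0.58, adjusted p 0.0543 to 0.0632), and the RNU1-16P call without control_IbrVen replicate 1 or 2, SMARCA4kd_IbrVen replicate 1 or 2 (-0.48 to -0.40, adjusted p 0.117 to 0.196) and in several other fits. In DMSO 1 was lower, RNU4-62P in an intron of HCLS1, at -0.83 (adjusted p = 0.0117, SE 0.25), while HCLS1 fell by 0.58 on the log2 scale. That pseudogene's transcript ends in 14 A, and the call was lost without control_DMSO replicate 2, SMARCA4kd_DMSO replicate 3 (-0.69 to -0.57, adjusted p 0.0774 to 0.142). The 40 rows summed to 116 ± 4.24 CPM in SMARCA4kd_IbrVen, 117 ± 13.4 in control_IbrVen, 104 ± 6.401 in SMARCA4kd_DMSO and 103 ± 9.31 in control_DMSO (SD, n = 3 each).

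The 16 members and 16 pseudogenes that were not tested had 51 to 106 and 41 to 102 counts over all 12 libraries, with at most 27 in 1 library. Those members were 7 C/D snoRNAs, 8 H/ACA snoRNAs and RNU6-8. SNORD83A had 8, 6 and 7 counts in SMARCA4kd_IbrVen and 2, 1 and 8 in SMARCA4kd_DMSO, and 4, 6 and 9 in control_IbrVen and 0, 0 and 1 in control_DMSO. SNORD3A, the U3 RNA needed for ribosomal RNA cleavage, had 3, 3 and 4 and 2, 0 and 6 counts in knockdown cells, drug first, and 11, 2 and 15 and 0, 2 and 3 in control cells. With the filter removed, SNORD83A was called higher with drug in control cells, SNORD1B lower with knockdown in DMSO and SNORA34 lower with knockdown under drug. Without control_IbrVen replicate 2, SNORD3A passed the filter and was called higher with drug in control cells, at 2.95 (adjusted p = 0.0259), and lower with knockdown under drug, at -1.92 (adjusted p = 0.0179).

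Genes of the proteins that make, bind or trim these RNAs were counted in 8 lists. Under drug, 0 of 144 tested genes were called in control cells with edgeR, DESeq2 or limma-voom, and 10 had an unadjusted p below 0.05, near the background of 1.29% of all rows called and 1266 of 12602 at that unadjusted p. In knockdown cells 1 rose, INTS6 of the Integrator, which cuts snRNA precursors, at 0.41 (adjusted p = 0.04104, SE 0.11). The 9 tested genes of the 7SK particle and P-TEFb had a median log2 fold change of -0.00 in knockdown cells and -0.04 in control cells. HEXIM1, the P-TEFb inhibitor that 7SK carries, had 0.02 (SE 0.07) in knockdown cells and 0.07 (SE 0.07) in control cells, and LARP7, which protects the 3′ end of 7SK, 0.01 (SE 0.06) and -0.06 (SE 0.06).

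With knockdown, the C/D and H/ACA particle list had 6 of 17 genes lower under drug and 5 lower in DMSO, with 0 higher in either. NOP56, a core C/D protein, fell, with a log2 fold change of -0.40 (adjusted p = 1.27e-06, SE 0.06) under drug and -0.41 (adjusted p = 6.43e-07, SE 0.06) in DMSO. DKC1, the pseudouridine synthase of H/ACA particles, fell, with a log2 fold change of -0.34 (adjusted p = 3.05e-06, SE 0.05) and -0.29 (adjusted p = 2.55e-05, SE 0.05). NOLC1, a nucleolar chaperone of both particles, fell, with a log2 fold change of -0.35 (adjusted p = 8.65e-06, SE 0.06) and -0.26 (adjusted p = 0.000303, SE 0.05). The list of SNAPc and RNA polymerase III had 2 of 29 genes higher and 6 lower under drug and 1 higher and 4 lower in DMSO, among them GTF3A, the factor for 5S RNA genes, at -0.26 (SE 0.06) and -0.36 (SE 0.06). POU2F1, an activator of snRNA promoters, rose on the log2 scale by 0.42 (SE 0.07) and 0.37 (SE 0.07).

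The exosome and trimming list had 1 of 24 higher (USB1) and 5 lower under drug, and 1 higher (USB1) and 3 lower in DMSO, with EXOSC7 lower in both. In the 7SK list 1 gene was higher and 1 lower of 9 in each condition. AFF4 rose on the log2 scale by 0.44 (SE 0.08) and 0.24 (SE 0.08) and ELL2 fell, with a log2 fold change of -1.21 (SE 0.20) and -0.80 (SE 0.20), under drug and in DMSO. The list of signal recognition particle, RNase P, vault and telomerase proteins had 0 of 19 higher and 2 lower under drug (TERT and POP5), and 0 higher and 3 lower in DMSO (those and POP4). Sm and LSm proteins had 1 of 15 higher and 1 lower under drug and 0 and 3 in DMSO. The Cajal body and SMN list had 1 of 17 higher and 0 lower under drug and 2 and 1 in DMSO, and the Integrator list had 1 of 14 higher and 2 lower under drug and 0 and 0 in DMSO. All of these counts stand beside 31.1% and 31.3% of all rows called.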

How the data were processed

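The authors deposited raw read counts, not normalized, in 1 table of 13820 rows and 12 libraries. Per the labels' protocols, RNA came from a Qiagen RNeasy kit and libraries from the Lexogen QuantSeq 3′ mRNA kit. Per the submitters' processing notes, bcl2fastq 2.17.1.14, HISAT2 and HTSeq were used with hg19. The annotation, the strand setting, the treatment of multimapping reads and other versions are not given in the sources used. Since no label tells whether replicates came from different cultures, p-values reflect the spread of these libraries, which may be technical.

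Rows were kept by filterByExpr (minimum count 10, minimum total 15), which left 12602, and scaled by TMM. All 12 libraries entered 1 edgeR 4.0.16 quasi-likelihood fit (R 4.3.3) with a coefficient per group, 8 residual and 22.5 prior degrees of freedom and a biological coefficient of variation of 5.69%. The 5 comparisons used two-sided F tests, adjusted by Benjamini-Hochberg over all rows tested, with a threshold of 0.05. The script was tested on simulated data. The SE was obtained from the log2 fold change and the square root of F, so it and the 95% intervals are approximate. A row was called when it passed that threshold.

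Named members were the 6 single RNAs, the 4 most abundant tested rows of each class and every member past the threshold. SNORD83A, SNORD3A, SNORD1B, SNORA34 and RNU5B-1 were named after their values were seen, and the split by host gene was also made then. The members and lists were chosen with earlier results of these data known. Alternatives were RLE scaling, library totals, other filters, DESeq2 1.42.0, limma-voom (limma 3.58.1), the 2 groups alone, the replicate number as a block, removal of ribosomal rows, scaling from rows other than members, and leaving out each library. Sequences were read from GENCODE release 29 transcripts (GRCh38) by Ensembl identifier, which found 101 of 108 rows.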

Additional observations from a re-analysis of the deposited data

How the results depend on the processing

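Of 43 calls of named members, called pseudogenes included, 24 held under every alternative that gave a value and 0 changed direction. With all libraries, 1.29% of all rows were called with drug in each population and 0.0238% by the interaction. With knockdown, 31.1% were called under drug and 31.3% in DMSO. The shares of all rows called in most other fits are not given here. A moved count can therefore not be read as particular to the members. Counts of called members stayed within 1.5 times the main count except as follows. The drug count in knockdown cells, 6, was 3 with DESeq2, 3 without SMARCA4kd_DMSO replicate 3 and 3 without SMARCA4kd_IbrVen replicate 3, and leaving out each library in turn gave 3 to 8. The count of knockdown under drug, 13, was 8 without SMARCA4kd_IbrVen replicate 1, and leaving out each library gave 8 to 14. The drug count in control cells, 9, ran from 7 to 11. It was 7 without control_IbrVen replicate 1, which lost SNORA42 and TERC, when 0.823% of all rows were called. The count of knockdown in DMSO, 10, ran from 9 to 12, and the interaction count was 0 throughout. The replicate numbers did not pair the samples (correlations of -0.12 to 0.08 for the same number and -0.09 to 0.09 for different ones). With the replicate number as a block the counts were 6 and 9 for drug in knockdown and control cells, 14 and 10 for knockdown under drug and in DMSO, and 0 for the interaction. The cause of these differences was not tested. Library totals in place of TMM moved the median log2 fold change of all rows by less than 0.1 in each comparison. DESeq2 gave no adjusted p for RNU6ATAC and SNORA42 in knockdown cells, and RNU11 was the other of the 3 calls not made there. Most members had under 100 counts in a library, so small changes were not detectable.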

Other observations

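Small RNA rows outside the symbol rule were examined after the data were seen. Y RNAs, short RNA polymerase III transcripts bound by the Ro protein, had 3 rows, all tested. RNY1 was at 5.12, 5.25 and 6.91 CPM in SMARCA4kd_IbrVen, 12.9, 11.2 and 10.6 CPM in control_IbrVen, 5.14, 2.71 and 4.48 CPM in SMARCA4kd_DMSO and 6.2999, 5.56 and 4.42 CPM in control_DMSO. With drug it rose in control cells on the log2 scale by 1.09 (adjusted p = 0.000502, SE 0.19) and had 0.47 (adjusted p = 0.403, SE 0.21) in knockdown cells. RNY5 rose in control cells on the log2 scale by 1.28 (adjusted p = 0.0403, SE 0.33). RNY4 had 1.45 (adjusted p = 0.0675, SE 0.40) there and did not pass. With drug in control cells DESeq2 called 1 of the 3 and limma-voom 2, and in knockdown cells 0 were called with edgeR, DESeq2 or limma-voom. With knockdown under drug all 3 fell, with log2 fold changes of -1.001 (adjusted p = 0.000103, SE 0.19) for RNY1, -1.56 (adjusted p = 0.00351, SE 0.41) for RNY4 and -0.85 (adjusted p = 0.0365, SE 0.31) for RNY5. Of all rows, 1.29% were called with drug in control cells. With knockdown, 31.1% of all rows were called under drug (16.3% lower) and 31.3% in DMSO. With knockdown in DMSO 0 of 3 were called with edgeR, DESeq2 or limma-voom, and 0 had an unadjusted p below 0.05. DESeq2 called 2 of the 3 with knockdown under drug.

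Pseudogene rows of 7SK and 7SL were counted beside RN7SK, with a background of 1.29% of all rows called under drug in each population, and so few rows give counts near it. Of 4 rows of 7SK pseudogenes 2 were tested, and 0 were called under drug in either population with edgeR, DESeq2 or limma-voom or had an unadjusted p below 0.05, with median log2 fold changes of 0.12 in knockdown cells and 0.05 in control cells. Of 35 rows of 7SL pseudogenes 21 were tested and 0 were called under drug with any of these tools, while 4 in knockdown cells and 1 in control cells had an unadjusted p below 0.05. The ribosomal rows RNA18S5 and RNA28S5 fell with drug in knockdown cells. For RNA18S5 the log2 fold change was -0.29 (adjusted p = 0.00474, SE 0.06) in knockdown cells and 0.27 (adjusted p = 0.00834, SE 0.06) in control cells. For RNA28S5 it was -0.73 (adjusted p = 5.64e-05, SE 0.11) in knockdown cells and 0.06 (adjusted p = 0.913, SE 0.11) in control cells.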
